A study of Rattus norvegicus with 9 samples.

Results

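In demyelinated white matter of the rat, 20 of 7574 named genes peaked in the middle of the time course: every array of 14 days post lesion (dpl) lay above those of 5 and 28 dpl, and the mean was at least 0.5 (log2) above both others. The highest mean of the 3 days fell at 14 dpl in 1489 genes, or 19.7%, most of them by less or with overlapping arrays. Sprague Dawley rats aged 12 weeks received 0.1% ethidium bromide into a fibre tract between brainstem and cerebellum, the caudal cerebellar peduncle. The resulting lesions were isolated by laser capture at 5, 14 or 28 dpl and measured on 9 Illumina expression arrays, 3 per time point. All 3 groups carry the lesion, so every difference is between times after injury and none is against intact tissue. The design text calls the arrays of one day biological replicates, but no source used here says whether each came from 1 animal, so errors and p-values describe the spread between these arrays.

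The genes were chosen by their measured level at 14 dpl. A gene was taken when all 3 of its 14 dpl arrays lay above all 6 arrays of 5 and 28 dpl, and when its 14 dpl mean was at least 0.5 (log2) above the mean of each other time point. Values are the authors' normalized log2 signals, with the brightest probe for each gene. All 20 genes had 1 probe. The differences of 14 dpl from 5 and 28 dpl are therefore given as a description, with no test. The 20 genes were 0.264% of those measured. The arrays of 14 dpl lay above all others in 170 genes, or 2.24%, and below all others in 183 genes, or 2.42%. With the limit of 0.5 turned the other way, 22 genes, or 0.29%, were lowest at 14 dpl. A further 6 of the 2873 probes that carry no gene symbol in the platform annotation met the rule.

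Ethidium bromide kills the oligodendrocytes and astrocytes at the site of injection. In the days and weeks that follow, microglia and blood-borne macrophages clear myelin debris, progenitor cells divide and move in, and new oligodendrocytes, and in this tract also Schwann cells, wrap the bare axons again. In lesion tissue, fewer cells of a type and less RNA per cell cannot be told apart.

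The 9 arrays were alike in depth, with 38.1% to 41.4% of raw targets detected. Myelin genes followed the labelled times: the mean of 21 such genes, each relative to its own mean over the 9 arrays, lay between -1.59 and -1.17 on the 5 dpl arrays, between -0.18 and 0.18 at 14 dpl and between 1.26 and 1.52 at 28 dpl. At 5 dpl, replicate 1 stood apart with a neuron score over 18 genes of 1.26, against -0.45 and -0.21 on the other arrays of that day. Without it, 19 genes met the rule, all among the 20, and Irf5 did not. The estimated background of the normalized values is 7.25 to 7.31, and 18 of the 20 genes were above it on all 9 arrays. The exceptions, Ltc4s and Spint1, dipped below it on 2 arrays and 1 array. Near that level the authors' scale is compressed, with a slope of 0.61 against raw log2 signal at a value of 7.5 and of 1 at 11, which understates the differences of dim genes.

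**Figure D1:**
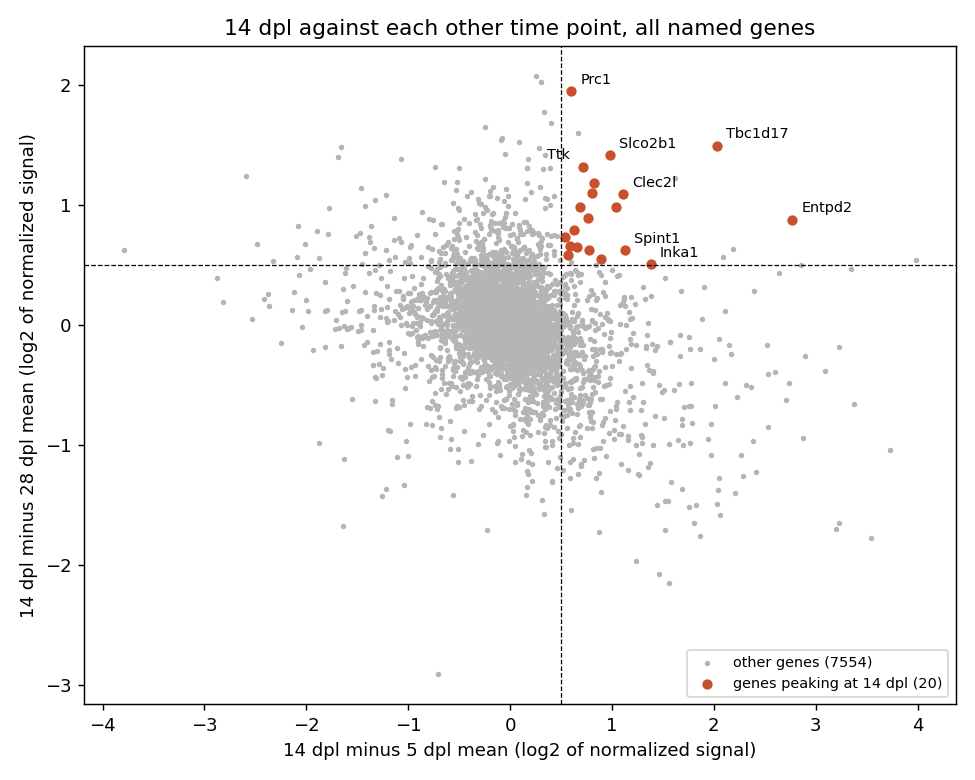
Each point is 1 of 7574 genes, with the 14 dpl minus 5 dpl mean on the horizontal axis and the 14 dpl minus 28 dpl mean on the vertical axis, both in log2 of normalized signal; dashed lines mark the limit of 0.5. The 20 genes that met the rule are in orange, with Entpd2 farthest to the right and Prc1 at the top of the group. Grey points inside the corner are genes whose arrays overlapped between time points.

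The differences ran from 0.54 to 2.77 against 5 dpl, with a median of 0.79, and from 0.51 to 1.95 against 28 dpl, with a median of 0.89. As folds, the medians were 1.73 and 1.85. The height of the peak, taken over the higher of the other means, was at least 1 in 2 genes, Tbc1d17 and Clec2l. The clear space between the lowest array of 14 dpl and the highest of the other 6 was 0.12 to 1.07. That highest array was one of 5 dpl for 11 genes and one of 28 dpl for 9.

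Entpd2 encodes an enzyme on the cell surface that removes phosphate from extracellular ATP, a signal released by injured cells. Its signal was 9.77, 8.95 and 9.51 on the arrays of 5 dpl, 11.80, 12.35 and 12.39 at 14 dpl, and 11.68, 10.77 and 11.45 at 28 dpl. The groups did not overlap, but the lowest array of 14 dpl was only 0.12 above the highest of 28 dpl. The 14 dpl mean exceeded that of 5 dpl by 2.77 (SE 0.28, n = 3 arrays per time point), or 6.83-fold, the largest such difference among the 20 genes. It exceeded the 28 dpl mean by 0.88, or 1.84-fold. Entpd2 thus kept most of its difference from 5 dpl at 28 dpl, when it was still higher by 1.89 (SE 0.28), with limma's adjusted p = 0.000834 and a range of 0.000261 to 0.00471 over 16 other settings.

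Most other enzymes and receptors of extracellular nucleotides had another course. Of the 17 other measured genes of purinergic signalling, 2 had their highest mean at 14 dpl. From 5 to 14 dpl, 0 rose and 4 fell with limma, where 10.9% and 11.4% of all genes did, and at an unadjusted p under 0.05 the counts were 2 and 5. Those that fell were Enpp3, an ectonucleotide pyrophosphatase, with a difference of -1.58, the receptors P2ry2 with -1.16 and P2ry14 with -0.97, and Ada, adenosine deaminase, with -0.81. Entpd1, which encodes the related ectonucleotidase of microglia and vessels, had means of 7.46, 7.37 and 7.15 at 5, 14 and 28 dpl, close to background. Without 5 dpl replicate 1 or without 14 dpl replicate 1, 1 gene rose and 4 fell.

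In peripheral nerve, Entpd2 is a gene of non-myelinating Schwann cells. Of 11 other measured genes typical of Schwann cells, 3 had their highest mean at 14 dpl, against 19.7% of all genes. From 5 to 14 dpl 9 of the 11 rose and 0 fell with limma, where 10.9% and 11.4% of all genes did. At an unadjusted p under 0.05 the counts were 10 and 0. Their median difference was 1.98, against -0.02 over all genes. From 14 to 28 dpl 1 rose, Fxyd3, and 0 fell (4 and 0 at an unadjusted p under 0.05), with a median of 0.26; without 5 dpl replicate 1, 2 rose. Here 7.74% of all genes rose and 8.15% fell. Dhh, the desert hedgehog ligand that Schwann cells secrete, had means of 7.52, 10.42 and 10.68, and Cldn19, a tight junction protein of their myelin, 7.24, 9.22 and 10.04. Sostdc1, a secreted BMP antagonist, came nearest to the course of Entpd2, with means of 7.25, 11.23 and 10.68. It did not meet the rule because its lowest array of 14 dpl, at 10.39, lay below 2 arrays of 28 dpl, at 11.22 and 11.11. The Schwann list, Entpd2 included, scored 0.19 on 14 dpl replicate 1, against 0.76 and 0.78 on the other arrays of that day. Entpd2 was likewise lowest on replicate 1; the part of Schwann cell content in this was not tested.

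Genes of cell division were represented by Ttk, the kinase that holds mitosis until chromosomes are attached, by Prc1, which bundles the microtubules of the central spindle in cytokinesis, and by Dctd, a deaminase that makes the precursor of thymidylate. Ttk measured 9.32, 9.57 and 9.28 at 5 dpl, 10.24, 10.06 and 10.01 at 14 dpl, and 8.84, 8.81 and 8.70 at 28 dpl. The 3 arrays of each day lay close together and no group overlapped another. Prc1 measured 10.44, 10.75 and 10.67, then 11.08, 11.14 and 11.45, then 9.59, 9.19 and 9.02. Its drop after 14 dpl, 1.95 or 3.87-fold, was the largest of the 20 genes, while its difference from 5 dpl was 0.60. Without 14 dpl replicate 3, Prc1 did not reach the limit of 0.5. Dctd measured 8.47, 8.55 and 8.64, then 9.53, 9.13 and 9.06, then 8.31, 8.18 and 8.27, without overlap between days.

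How many other mitotic genes had their highest mean at 14 dpl changed with the array left out. Of 51 others measured, 31 were highest on average at 14 dpl, against 19.7% of all genes. Without 5 dpl replicate 1, the array with the high neuron score, 19 of the 51 were, or 37.3%, against 17.6% of all genes. Without 14 dpl replicate 1, 34 were, or 66.7%, against 20.1% of all genes. The count was not made without any of the other arrays. With all arrays, the arrays of 14 dpl lay above all others in 2, Cdc20 and Smc2, with peak heights of 0.40 and 0.36. From 5 to 14 dpl 1 of the 51 rose with limma, Stmn1, which regulates microtubules, with a difference of 0.91, and 1 fell, Dlgap5, a spindle protein, with -0.65. At an unadjusted p under 0.05 the counts were 5 and 1, and the median difference was 0.04. Stmn1 did not follow the course of the others, with means of 11.04, 11.94 and 12.56. It was the only 1 of the 51 that was higher at 28 than at 5 dpl with limma, where 47 were lower. From 14 to 28 dpl 0 rose with limma (1 at an unadjusted p under 0.05) and 43 fell, where 8.15% of all genes fell. Their median difference was -0.80. Without 14 dpl replicate 1 the counts from 5 to 14 dpl were 2 and 1, and without 5 dpl replicate 1 they were 1 and 2. In the latter case the median difference was -0.02 and the counts at an unadjusted p under 0.05 turned to 2 higher and 6 lower. Of 37 genes of DNA replication, 6 had their highest mean at 14 dpl, or 16.2%, and 0 met the rule.

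Promoters of many mitotic genes carry a CCAAT box and, close to the start site, a cell cycle homology region (CHR) with the core TTTGAA. Promoter sequences of 250 bases before to 50 after the gene start were found for 17 of the 20 genes in RefSeq's GRCr8 annotation, and not for Mfng, Plek and Zdhhc2. The promoters of Prc1 (chr1:143659231-143659530, plus strand) and Ttk (chr8:93634389-93634688, plus strand) are printed because these are the mitotic genes of the group and both hold both motifs. Capitals mark CCAAT or its reverse complement ATTGG, and TTTGAA or its reverse complement TTCAAA.
Prc1: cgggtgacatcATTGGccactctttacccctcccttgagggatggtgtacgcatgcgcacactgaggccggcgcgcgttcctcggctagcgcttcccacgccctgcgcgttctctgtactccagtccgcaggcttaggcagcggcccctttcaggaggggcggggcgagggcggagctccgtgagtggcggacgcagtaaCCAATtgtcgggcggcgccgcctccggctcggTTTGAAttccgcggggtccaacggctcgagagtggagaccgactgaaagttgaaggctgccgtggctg
Ttk: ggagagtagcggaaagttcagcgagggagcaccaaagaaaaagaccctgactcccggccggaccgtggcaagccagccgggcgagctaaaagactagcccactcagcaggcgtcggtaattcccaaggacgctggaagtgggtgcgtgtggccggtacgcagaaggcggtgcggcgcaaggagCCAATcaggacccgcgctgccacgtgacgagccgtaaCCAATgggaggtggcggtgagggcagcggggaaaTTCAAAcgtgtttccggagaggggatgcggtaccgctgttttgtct

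In Prc1 the TTTGAA match begins 18 bases before the gene start and the nearer CCAAT 50 bases before it. In Ttk the 2 CCAAT matches begin 67 and 30 bases before the start, and TTCAAA begins at base 5 after it. Searched on both strands, CCAAT was present in 6 of the 17 promoters (Inka1, Ltc4s, Prc1, Slc2a5, Spint1 and Ttk) and in 38.0% of 6275 promoters of measured genes. TTTGAA was present in 3 (Dapp1, Prc1 and Ttk) and in 11.7%. Both were present in 2, Prc1 and Ttk, and in 4.75%. The motifs do not overlap each other, and a match is a description of the letters only.

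Genes known from microglia, macrophages and other white blood cells were also among the 20. Slc2a5, the fructose transporter GLUT5 and a marker of microglia in brain, measured 12.00, 11.97 and 11.59 at 5 dpl, 12.97, 12.74 and 12.26 at 14 dpl, and 11.72, 11.63 and 11.30 at 28 dpl. Slco2b1, an organic anion transporter also expressed by microglia, measured 10.15, 10.37 and 10.20, then 11.69, 11.06 and 10.91, then 9.87, 9.76 and 9.78. In both genes the 28 dpl mean was below that of 5 dpl, and the 14 dpl mean was above that of 28 dpl by 1.10 and 1.42.

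Plek, pleckstrin, a substrate of protein kinase C in platelets and leukocytes, measured 12.45, 12.62 and 12.71, then 13.57, 12.93 and 12.998, then 12.33, 12.81 and 12.62. Its 5 dpl arrays lay within the wider range of its 28 dpl arrays. Irf5, a transcription factor of Toll-like receptor signalling, measured 9.61, 9.83 and 9.72, then 10.68, 10.16 and 9.96, then 9.43, 9.78 and 9.39. Dapp1, an adaptor that binds membrane phosphoinositides in B cells, measured 9.77, 10.02 and 9.76, then 10.90, 10.35 and 10.19, then 9.65, 9.90 and 9.51. For Plek, Irf5 and Dapp1 the gap between 14 dpl and the other arrays was 0.13, 0.12 and 0.17, and replicate 1 stood well above the other 14 dpl arrays.

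Another pair makes lipid mediators. Ltc4s, which makes leukotriene C4, measured 7.37, 7.43 and 7.25, then 8.15, 7.90 and 7.97, then 7.40, 7.24 and 7.43. It was thus near background on both other days. Daglb, a diacylglycerol lipase that makes the endocannabinoid 2-arachidonoylglycerol, measured 10.16, 10.49 and 10.11, then 11.56, 10.98 and 10.89, then 10.71, 10.69 and 10.38.

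Most microglia and macrophage markers had another course. Of 20 measured markers, none of which is among the genes above, 7 had their highest mean at 14 dpl, or 35.0%, against 19.7% of all genes. These 7 were P2ry12, Cx3cr1, Itgam, Fcgr2b, Trem2, Laptm5 and Cd4. From 5 to 14 dpl 0 rose and 7 fell with limma (1 and 8 at an unadjusted p under 0.05), where 10.9% and 11.4% of all genes did. From 14 to 28 dpl 0 rose, also at an unadjusted p under 0.05, and 11 fell, where 7.74% and 8.15% of all genes did. P2ry12, the purinergic receptor of resting microglia, was the only one whose 14 dpl arrays lay above all others, with means of 9.55, 9.88 and 8.58. From 5 to 14 dpl Ms4a7 fell by 2.12 and Mrc1, the mannose receptor, fell by 1.34, while Trem2, a lipid receptor of phagocytes, had means of 14.18, 14.32 and 13.92. The summed level of the list, as a mean relative to each gene's own mean, lay between 0.40 and 0.55 at 5 dpl, between -0.04 and 0.24 at 14 dpl and between -0.74 and -0.43 at 28 dpl. Cd4 and Cd163, markers of macrophages, were at or near background throughout.

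The other genes act at the cell surface, outside the cell, or on membranes and the cytoskeleton. Tbc1d17, which switches off Rab GTPases of membrane traffic, had the highest peak of all. It measured 8.10, 8.48 and 8.63 at 5 dpl, 11.16, 10.08 and 10.07 at 14 dpl, and 9.00, 8.96 and 8.86 at 28 dpl. The gap of 1.07 between 14 dpl and the other arrays was the widest of the 20 genes. Its 14 dpl mean was 4.10-fold that of 5 dpl and 2.82-fold that of 28 dpl.

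Clec2l, a C-type lectin-like membrane protein, measured 9.48, 9.40 and 9.32, then 10.89, 10.46 and 10.18, then 9.60, 9.62 and 9.01. Its means of 5 and 28 dpl were nearly equal, at 9.40 and 9.41. Gpc3, a glypican that binds growth factors through its heparan sulfate chains, measured 8.38, 7.86 and 7.92, then 8.85, 9.13 and 9.30, then 8.41, 8.03 and 7.87. Its means of 5 and 28 dpl were also close, at 8.06 and 8.10. Cpxm1, a secreted protein of the carboxypeptidase family, measured 8.25, 8.74 and 8.80, then 9.86, 9.02 and 9.38, then 8.25, 8.24 and 8.22. Spint1, a Kunitz-type inhibitor of serine proteases such as the activator of hepatocyte growth factor, measured 7.29, 7.47 and 7.34, then 8.95, 8.34 and 8.19, then 8.03, 7.79 and 7.76.

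Mfng, a fringe glycosyltransferase that modifies Notch receptors, measured 10.01, 10.12 and 10.08, then 11.17, 10.87 and 10.45, then 10.04, 10.04 and 9.72. Notch1 itself rose by 0.50 (SE 0.11) from 5 to 14 dpl, with limma's adjusted p = 0.0151, and had means of 8.69, 9.19 and 9.23. The related fringe Lfng was near background at all times, with means of 7.26, 7.23 and 7.17. The other measured Notch genes did not pass from 5 to 14 dpl. Jag1, Hes1 and Hey1 differed by 0.20, 0.14 and -0.01, with limma's adjusted p of 0.434, 0.163 and 0.898. Of 23 measured genes of BMP, Wnt, Notch and hedgehog signalling 7 had their highest mean at 14 dpl, against 19.7% of all genes. From 5 to 14 dpl 7 rose and 1 fell, where 10.9% and 11.4% of all genes did. From 14 to 28 dpl 1 rose and 0 fell, where 7.74% and 8.15% of all genes did, and 3 were higher and 3 lower at an unadjusted p under 0.05. Without 14 dpl replicate 1 the latter counts were 0 and 0, with 1 higher and 2 lower at an unadjusted p under 0.05. Without that array or 5 dpl replicate 1, 0 of the 23 fell from 5 to 14 dpl, with 2 and 1 lower at an unadjusted p under 0.05.

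Evl, an Ena/VASP protein of actin filament growth, measured 11.39, 11.28 and 11.15, then 12.14, 11.77 and 11.68, then 11.30, 11.30 and 10.997. Zdhhc2, which attaches palmitate to proteins, measured 8.90, 8.52 and 8.42, then 9.07, 9.54 and 9.55, then 8.75, 8.69 and 8.83. Inka1, which inhibits the kinase PAK4, measured 7.69, 7.90 and 7.56, then 9.20, 9.03 and 9.08, then 8.75, 8.35 and 8.67. Like Entpd2, Inka1 stayed well above its 5 dpl level at 28 dpl.

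**Figure D2:**
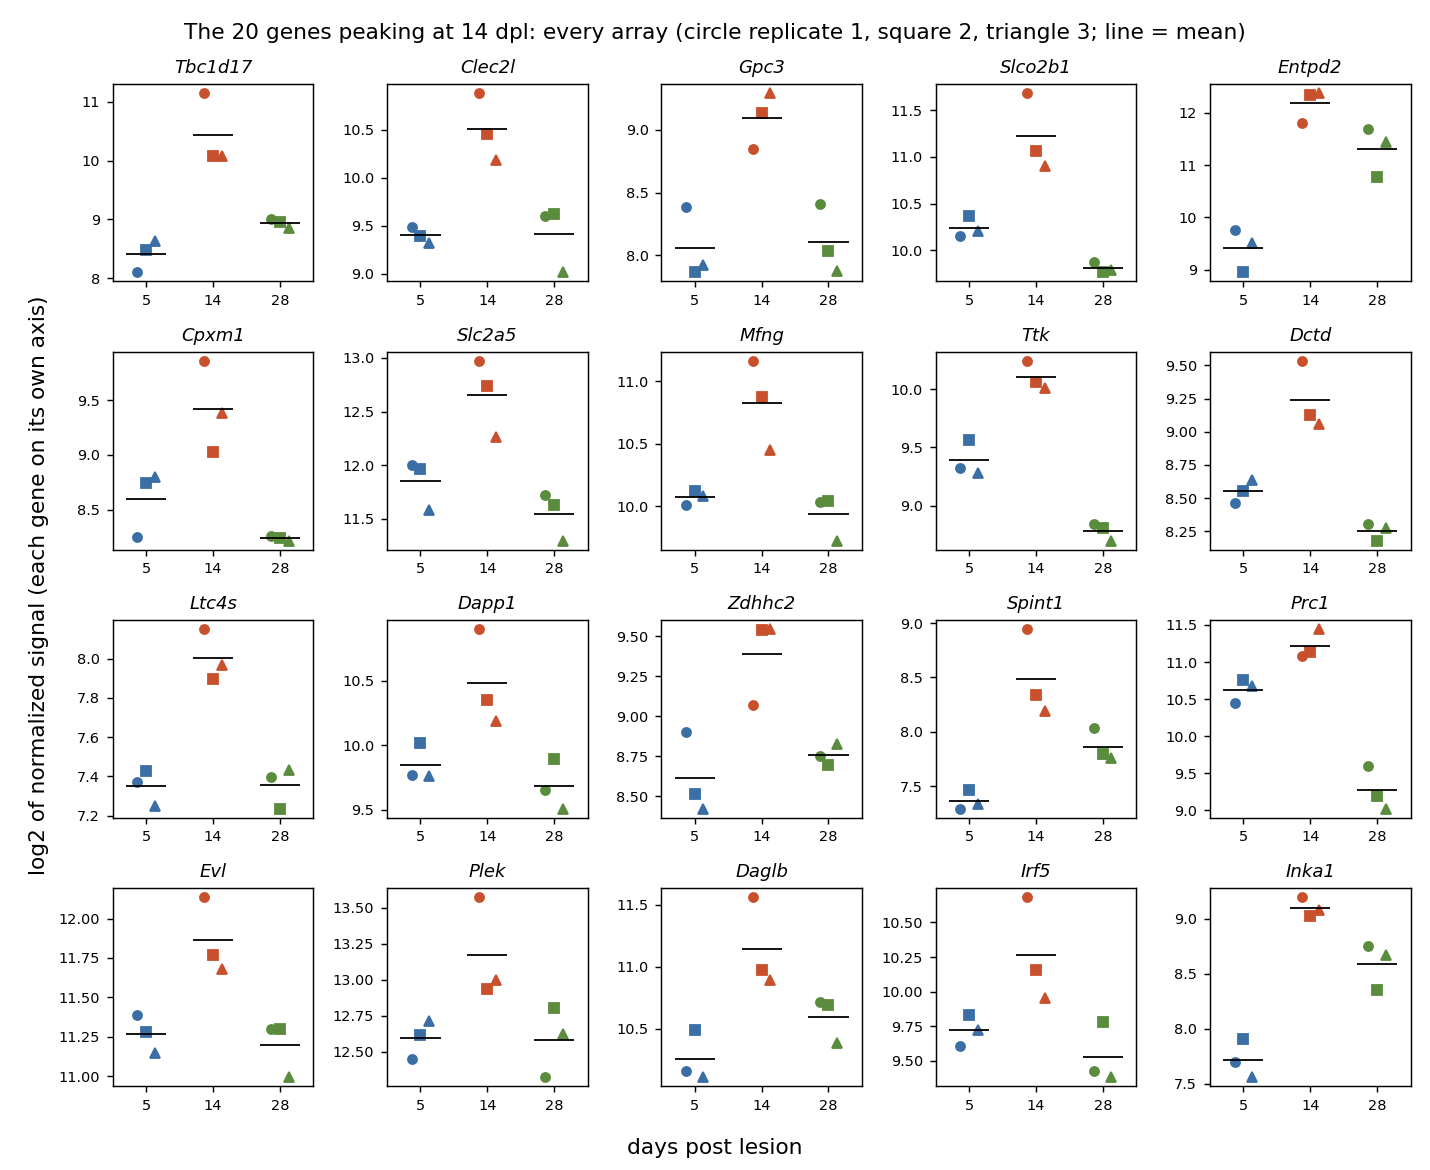
Log2 normalized signal of each of the 20 genes on all 9 arrays, ordered by peak height, against days post lesion; symbols are replicates 1 to 3, lines are means, and each gene has its own vertical axis. All 14 dpl arrays lie above the other 6 in each panel, as the rule requires. Entpd2 and Inka1 stay between both levels at 28 dpl, whereas Prc1 and Ttk end below their 5 dpl level.

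The rule says nothing of how 28 dpl compares with 5 dpl, apart from holding both below 14 dpl. Over the 20 genes this difference ran from -1.35 to 1.89 with a median of -0.04, against a median of -0.03 over all genes, and 9 genes had the higher mean at 28 dpl. With limma and Benjamini-Hochberg adjustment over all probes, 3 genes were higher and 2 lower at 28 dpl, where 20.7% of all genes were higher and 26% lower. At an unadjusted p under 0.05 the counts were 3 and 4. A total of 5 of 20 genes is a smaller share than the 46.7% of all genes that differed between these days. No test was made of that difference in shares, and it was not seen with only the 5 and 28 dpl arrays fitted. In that fit 8 of the 20 genes and 39.7% of all probes differed, where 44.3% of all probes did in the main fit. The share of all genes was not computed for the fit of these 2 days.

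The 3 genes higher at 28 than at 5 dpl were Entpd2, given above, Inka1 and Spint1. Inka1 was higher by 0.87 (SE 0.12, adjusted p = 0.000535 with limma, range 0.000228 to 0.00324), or 1.83-fold, and the 3 arrays of 28 dpl lay above all 3 of 5 dpl. Spint1 was higher by 0.50 (SE 0.18), also without overlap, with limma's adjusted p = 0.0475 and a range of 0.0034 to 0.144 over 15 other settings. This call was lost without any 1 of the 5 or 28 dpl arrays or without 14 dpl replicate 2, with adjusted p-values of 0.0583 to 0.144. The genes lower at 28 dpl were both mitotic. Prc1 was lower, with a difference of -1.35 (SE 0.16, adjusted p = 0.000236 with limma, range 0.000146 to 0.00200), and so was Ttk, with -0.61 (SE 0.09, adjusted p = 0.000960, range 0.000832 to 0.00516), in each case without overlap.

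The other 15 genes did not pass. Clec2l, Ltc4s, Plek, Gpc3 and Evl differed by 0.01, 0.00, -0.01, 0.05 and -0.07, with SEs of 0.20, 0.09, 0.18, 0.18 and 0.13. Slco2b1 and Dctd differed by -0.43 (SE 0.18) and -0.30 (SE 0.12), and Tbc1d17 by 0.54 (SE 0.27), with limma's adjusted p of 0.0739, 0.0669 and 0.142. Those 3 genes passed without 14 dpl replicate 1, at limma's adjusted p of 0.00305, 0.00789 and 0.0112. That brought the count to 8 of 20, where 43.7% of all probes passed. The left-out array enters the fit only through its estimate of residual variance, which is common to all 3 days.

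**Figure D3:**
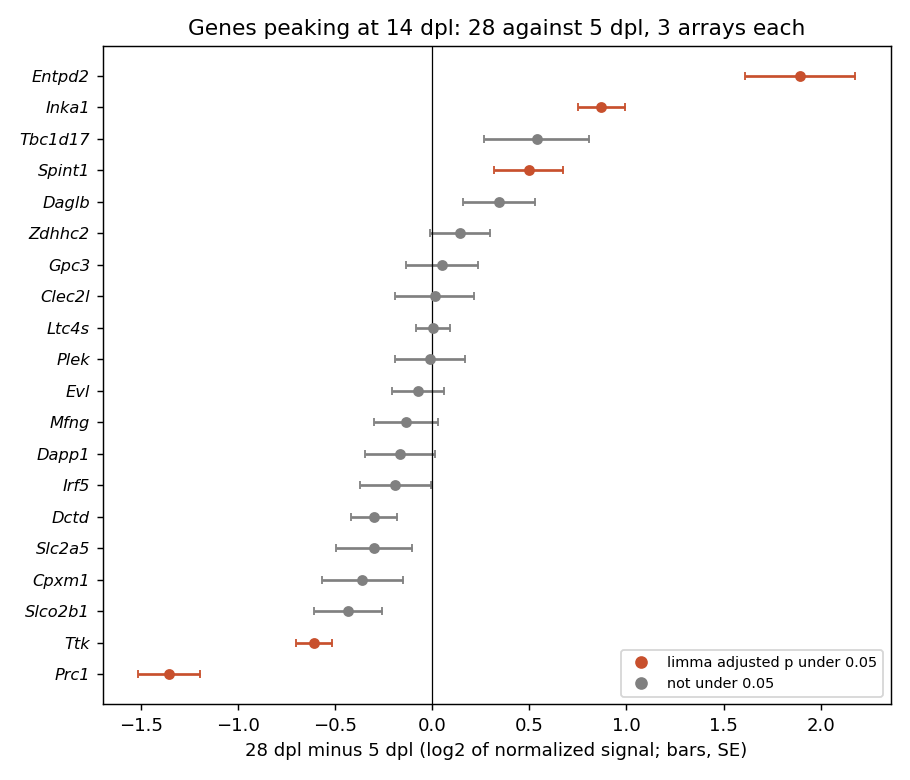
The 28 dpl minus 5 dpl difference (log2 of normalized signal, horizontal axis) of each of the 20 genes, with bars for the SE of the limma fit and 3 arrays per time point. Entpd2, Inka1 and Spint1 are higher and Prc1 and Ttk lower at an adjusted p under 0.05, in orange; the other 15 genes, in grey, are spread around 0.

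The 20 genes did not all vary in the same direction among the arrays of 14 dpl. In 16 of them replicate 1 was the highest of the 3 arrays, and in the other 4, Entpd2, Gpc3, Prc1 and Zdhhc2, it was the lowest and replicate 3 the highest. Over all genes replicate 1 was highest in 38.1%. The median deviation of the 20 genes from their own 14 dpl mean was 0.33 on replicate 1, -0.10 on replicate 2 and -0.18 on replicate 3. Over all genes these medians were 0.00 on each array. The median SD of the 20 genes was 0.35 at 14 dpl, against 0.15 at 5 dpl and 0.18 at 28 dpl, and over all genes it was 0.08 at 14 dpl. The largest deviation was that of Tbc1d17, at 0.72 on replicate 1, and the lowest value on that array was that of Entpd2, at -0.38.

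Some marker lists moved with this split and others did not. On 14 dpl replicate 1 the microglia and macrophage list scored 0.24, against -0.04 and 0.04 on the other arrays of that day, and 15 of its 20 genes were highest there. The interferon and antigen presentation list scored 0.20, against -0.15 and 0.07, with 16 of 27 genes highest on replicate 1. The extracellular matrix list was lowest on replicate 1, at -0.19 against 0.14 and 0.34, as was the myelin list, at -0.18 against 0.18 and 0.15. On the purinergic list, replicate 1 lay between the other arrays of that day, at -0.002 against -0.01 and 0.013. The same held for the DNA replication, phagocyte lipid handling, cytokine and chemokine, and neuron lists. It also held for the mitosis list, at 0.28 against 0.22 and 0.45, with 6 of 53 genes highest on replicate 1. The astrocyte, lysosome, and T and natural killer cell lists were highest on replicate 1, with 10 of 14, 16 of 22 and 6 of 14 genes highest there. All remaining lists were lowest on it. The part of cell content in the deviations of the 20 genes was not tested.

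Membership rested on this array for some genes and not for others. Without 14 dpl replicate 1, 13 of the 20 genes still met the rule, and Dapp1, Spint1, Evl, Plek, Daglb, Irf5 and Inka1 did not. In all, 32 genes met it on the remaining 8 arrays. Leaving out an array cannot make the arrays of a member overlap, so a member could be lost only through the limit on the means. Whether narrow gaps between arrays, such as that of Entpd2, would hold was therefore not tested. When each array was left out in turn, 12 of the 20 genes met the rule every time. These were Tbc1d17, Clec2l, Gpc3, Slco2b1, Entpd2, Cpxm1, Slc2a5, Mfng, Ttk, Dctd, Ltc4s and Zdhhc2.

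**Figure D4:**
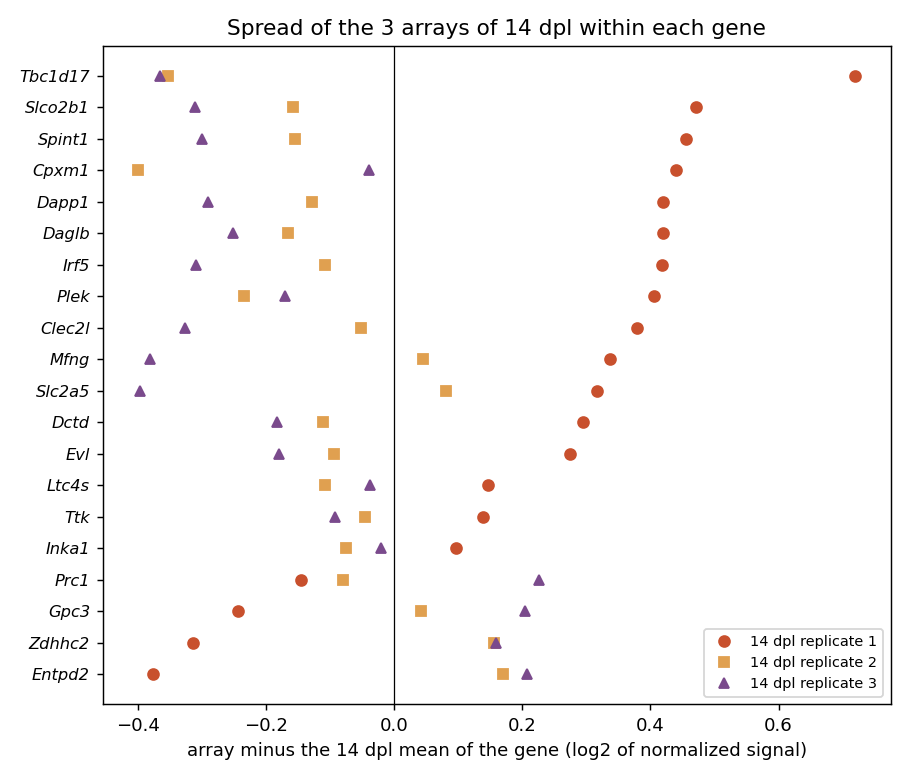
Each gene's 3 arrays of 14 dpl as deviations from their mean (log2 of normalized signal, horizontal axis), ordered by replicate 1. Replicate 1 lies to the right for 16 genes, by up to 0.72 in Tbc1d17, and to the left for Prc1, Gpc3, Zdhhc2 and Entpd2.

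The limit cuts through a continuous range. The genes just inside it were Daglb, Irf5 and Inka1, with peak heights of 0.55, 0.54 and 0.51. Just outside were Fst, which encodes follistatin, at 0.50 (0.498 before rounding), Calca, which encodes calcitonin gene-related peptide, at 0.50 (0.495), and Kcnj5, an inward rectifier potassium channel, at 0.46, all with arrays of 14 dpl above the other 6. Another 7 genes reached the height but had overlapping arrays: Ttr, RT1-A2, Coro1a, Fbln5, Ly6g6e, Sostdc1 and Ctse. Coro1a, an actin regulator of leukocytes, measured 13.56, 12.83 and 12.75 at 14 dpl and up to 12.83 at 5 dpl. Fbln5, an elastic fibre protein, had means of 7.998, 10.19 and 9.56.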

How the data were processed

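The authors deposited a normalized table on a log2 scale, whose 9 columns hold the same set of values to within 0.0017, as quantile normalization gives, and a table of bead signal intensity with detection p-values, not normalized per the file headers. No source used here gives the transform or filter behind that table. The tables share 0 identifiers, so genes come from the normalized table only (10552 probes, 7679 with 1 symbol, 0 with several, 7574 genes; 7565 matched RefSeq's GRCr8 table by gene identifier). Background was estimated from the number of raw targets undetected at 0.01 per array, taking the 10552 raw targets detected on at least 1 array to be the table's probes, which could not be checked. The fits used limma 3.58.1 under R 4.3.3: lmFit with 1 mean per time point, eBayes, Benjamini-Hochberg over all probes, threshold 0.05. List counts at 14 dpl leave out the 20 genes. The rule was also run on raw targets after neqc (offset 16; 9404 targets detected at 0.01 on 3 or more arrays). Scripts were tested on simulated data. The rule for named genes took Entpd2, the 15 members with the highest peaks, members in the gene lists, the extremes between 28 and 5 dpl, and the 3 genes on each side of the limit; the other members are named by function, and all genes that are not members, other than Fst, Calca and Kcnj5, were chosen after their values were seen. Members, lists and motifs were chosen with earlier results of these data known. Alternatives were other limits, probes, normalizations, filters and left-out arrays. The number of arrays limits the precision.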

Additional observations from a re-analysis of the deposited data

How the results depend on the processing

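The number of genes that met the rule followed its limits: 75 with a peak height of at least 0.25, 2 with at least 1 and 170 with no limit on the means, against 20. It was 19 to 32 without 1 array, the highest without 14 dpl replicate 1. It was 27 when arrays may overlap, and 20 with the mean over a gene's probes or only above background. These last settings could not remove a member, as each had 1 probe and a 14 dpl mean of 8.005 or more. Cyclic loess gave 20, 19 of them the same genes, and 26 probes met the rule with unnamed ones included. On the raw targets 25 met the rule after neqc and 40 with no background correction, and the other settings gave 23 to 25. Members that differed between 28 and 5 dpl numbered 5, where 44.3% of all probes did. With only these days fitted the members numbered 8 (4 of them lower, against 2), where 39.7% of all probes differed. Over all settings given here, 36.7% to 48.9% of the probes tested differed. Without 1 array the members numbered 4 to 8, with 2 to 4 higher and 2 to 4 lower. The replicate block gave 6, adding Slc2a5 (adjusted p = 0.0183 with limma), and changed no other call of a member. Same-numbered arrays correlated at -0.291 to 0.147 in their deviations, so the numbers are not taken as pairs. Array weights gave 6, and the trend, cyclic loess and the filter on 3 arrays gave 5. The filter on all 9 arrays gave 4 and left out Spint1. The difference between 28 and 5 dpl reversed for 0 genes called in either setting. The cause of these changes was not tested. Differences near background, as in Ltc4s, are limited by the compressed scale.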

Other observations

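Among genes whose 14 dpl mean was high but whose arrays overlapped, 2 had values that split within time points. Ttr, transthyretin, a gene of the choroid plexus, measured 7.33, 8.22 and 10.73 at 14 dpl, with at most 7.32 at 5 dpl and 8.01 at 28 dpl. RT1-A2, a class I histocompatibility gene, measured 7.02, 7.10 and 12.20 at 5 dpl, 10.45, 7.03 and 10.83 at 14 dpl, and 9.44, 6.95 and 7.09 at 28 dpl.

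The 22 genes lowest at 14 dpl by the mirrored rule were lower than both other means by 0.51 to 1.21. Of these, 16 met the mirrored rule without 5 dpl replicate 1, the array with the high neuron score, and Cadps, Gap43, Hapln2, Nefl, Stmn3 and Syp did not. Nefl, a neurofilament subunit, measured 10.82, 8.21 and 8.33 on the arrays of 5 dpl, with means of 7.91 at 14 dpl and 9.28 at 28 dpl. Syp, synaptophysin, measured 9.90, 8.11 and 8.31 at 5 dpl, with means of 8.01 and 8.84. The 5 dpl means of both genes thus rested on replicate 1, and without it their depths were 0.36 and 0.20. Those that met the rule without this array include Pla2g7, which inactivates platelet-activating factor, with means of 9.86, 8.23 and 9.34 over all arrays, and Dusp1 and Ddit3, genes of the stress response, with depths of 0.51 and 0.58. As with the genes that peaked, these values chose the genes and are not tested. These named examples were chosen after their values were seen.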
